A study of Mus musculus with 4 samples.

Results

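The mesothelial cells of the mouse renal capsule were picked out of single-cell transcriptomes by 4 transcripts, Msln, Upk3b, Lrrn4 and Krt19. A barcode was a member when it carried at least 3 unique molecular identifiers (UMIs, tags that count original RNA molecules) of these genes, from at least 2 of them, and no UMI of the leukocyte gene Ptprc or of the endothelial gene Pecam1. The rule found 357 members among 37361 kept barcodes (500 or more UMIs, 300 or more genes, no more than 20% of UMIs mitochondrial). There were 132 and 136 members in the young libraries (replicates 1 and 2) and 33 and 56 in the aged libraries. The capsule is the connective tissue sheath of the kidney, and the series compared capsules dissected from untreated young mice with those of aged mice, 2 libraries per age. Each capsule suspension was made by enzymatic digestion and run on a droplet kit that reads the 3′ ends of transcripts. The sources used here give no age in weeks, strain, sex or number of mice per library. Nothing says that the libraries of an age came from separate animals, so the spread behind each p-value is that between libraries and may be technical.

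Mesothelium is the flat epithelium that lines the body cavities and covers the organs within them. It is known for a mixed character, with keratins and apical glycoproteins of an epithelium beside vimentin and matrix transcripts of a mesenchyme, and for secreting lubricants, protease inhibitors and complement. Mesothelial cells derive from the coelomic epithelium, which also contributes to the stroma of several organs, and the transcription factor Wt1 marks them in adults.

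The members were among the deeper cells of their libraries. Their median was 8658 and 9334 UMIs per cell in the young libraries and 8502 and 6038 in the aged libraries, so aged replicate 2 was the shallowest. Summed over members, the young libraries held 1373604 and 1489157 UMIs and the aged libraries 270881 and 365542. Kept barcodes shared 18 to 37 barcode sequences between pairs of libraries, and no barcode sequence of a member occurred among members of another library. Some members also carried transcripts of another cell class. Cut-offs for these were chosen after the data were seen. They were 10 UMIs of 3 or 4 defining genes of proximal tubule, macrophage or fibroblast, or 3 of lymphocyte genes. The genes were Kap, Miox and Slc34a1 (tubule), C1qa, Lyz2 and Csf1r (macrophage), and Pdgfra, Lum, Dpt and Pi16 (fibroblast). For lymphocytes they were Cd3d, Cd3e, Trac, Cd79a and Ms4a1. By these cut-offs there were 24 and 23 mixed barcodes in the young libraries and 1 and 5 in the aged libraries. Doublets were also marked by the highest scores of the doublet caller Scrublet. Their share was preset at 0.8% for every 1000 barcodes in a library. It came to 7.59% and 8.50% of kept barcodes in the young and 5.69% and 9.70% in the aged libraries. Marked were 21 of 132 and 15 of 136 young and 7 of 33 and 13 of 56 aged members. That is a larger share of the aged, so the order of the ages depends on the measure. Of the mixed barcodes, 6 and 7 in the young and 0 in either aged library carried proximal tubule transcripts, and 13, 16, 0 and 3 fibroblast transcripts. Results are therefore given with and without the mixed barcodes.

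All 4 rule genes were detected in 298 of the 357 members, and levels of the rule genes describe the choice only. Upk3b reached 1952, 2380, 1938 and 1663 CPM (a gene's UMIs per 1000000 UMIs summed over the members of a library) in young replicates 1 and 2 and aged replicates 1 and 2, against 0.573 to 4.35 CPM in the other kept cells. At the edge of the rule lay 7 members with exactly 3 UMIs, of which 1 carried at least 4 of 5 further mesothelial transcripts (Slpi, Upk1b, Gpm6a, Nkain4 and Muc16). Just outside it, 0 of 16 barcodes with 2 UMIs of 2 rule genes did so, against 323 of all 357 members. The exclusion of Ptprc and Pecam1 left out 30 barcodes that met the counts, and 27 of those carried 4 or more of the 5 transcripts.

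Members formed a smaller share of the aged than of the young cell suspensions. They made up 1.47% and 1.41% of kept barcodes in the young libraries (exact Clopper-Pearson 95% intervals 1.23% to 1.74% and 1.19% to 1.67%) and 0.488% and 0.468% in the aged libraries (intervals 0.336% to 0.685% and 0.353% to 0.607%, covering counting error only). The young mean was 1.44% ± 0.0406 and the aged mean 0.478% ± 0.0143 (SD, n = 2 each), 3.01-fold lower, and the ages did not overlap. An exact two-sided permutation test gave p = 0.333, the smallest that 2 libraries against 2 allow. The size of the difference followed the denominator. Of barcodes without Ptprc, members were 2.15% ± 0.108 in young and 1.17% ± 0.198 in aged libraries. Per 100 fibroblasts (barcodes with at least 10 UMIs of Pdgfra, Dcn, Lum and Col1a2, no rule gene, Ptprc or Pecam1), there were 3.27 and 2.99 members in the young and 2.54 and 2.47 in the aged libraries, a 1.25-fold difference. With the mixed barcodes left out, the shares were 1.20% and 1.17% in the young and 0.473% and 0.426% in the aged libraries. How much of the lower share lay in the tissue and how much in recovery from digestion cannot be told apart.

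**Figure D1:**
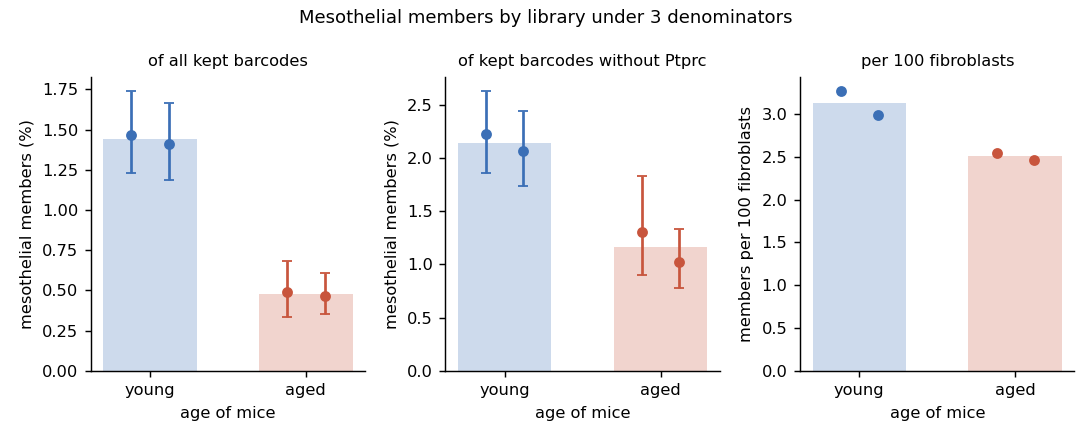
Mesothelial members in each library as a percentage of all kept barcodes, as a percentage of kept barcodes without Ptprc, and per 100 fibroblasts. Points are libraries, bars are means of 2 libraries, and error lines are exact 95% intervals for counting error (none for the third panel). The aged points lie below the young points in all 3 panels, by 3.01-fold in the first and 1.25-fold in the third.

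The label was checked against genes that the rule did not use. The 25 genes with the highest ratio of the level in members to that in all other kept cells, taken as the lowest ratio over the 4 libraries, were at least 30.4 times as high in members as in the other cells of the same library. These values describe cells picked by transcripts and carry no test. The abundant secreted member was Slpi, an antiprotease of mucosal and serosal surfaces. It stood at 15945 and 22617 CPM in the young and 17550 and 20099 CPM in the aged libraries, against 34.2 to 137 CPM in the other cells. The young libraries lay on either side of the aged ones. Muc16, a membrane mucin known as the CA125 antigen, stood at 419, 428, 546 and 651 CPM in the same order. Pkhd1l1, a large membrane protein related to fibrocystin, stood at 454, 394, 480 and 449 CPM. Both were below 1 CPM in the other cells of each library.

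Keratins of simple epithelia belonged to the same set. Krt7 stood at 499, 472, 317 and 358 CPM and Krt18 at 202, 323, 269 and 211 CPM, and both were under 3 CPM in the other cells. The membrane genes Upk1b (501, 553, 517 and 525 CPM), Gpm6a (1115, 1193, 1587 and 1185 CPM) and Nkain4 (976, 1203, 1004 and 914 CPM) were high in all 4 libraries. The galectins Lgals2 and Lgals7, the transcription factors Bnc1 and Myrf, the tight junction gene Cldn15 and the growth factor Fgf1 completed the main groups. Wt1 stood at 190, 179, 196 and 202 CPM, above the 32.2 to 54.2 CPM of fibroblasts. Gata6, another factor of coelomic epithelium, stood at 175 to 222 CPM in members and at 46.9 to 53.0 CPM in fibroblasts.

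**Figure D2:**
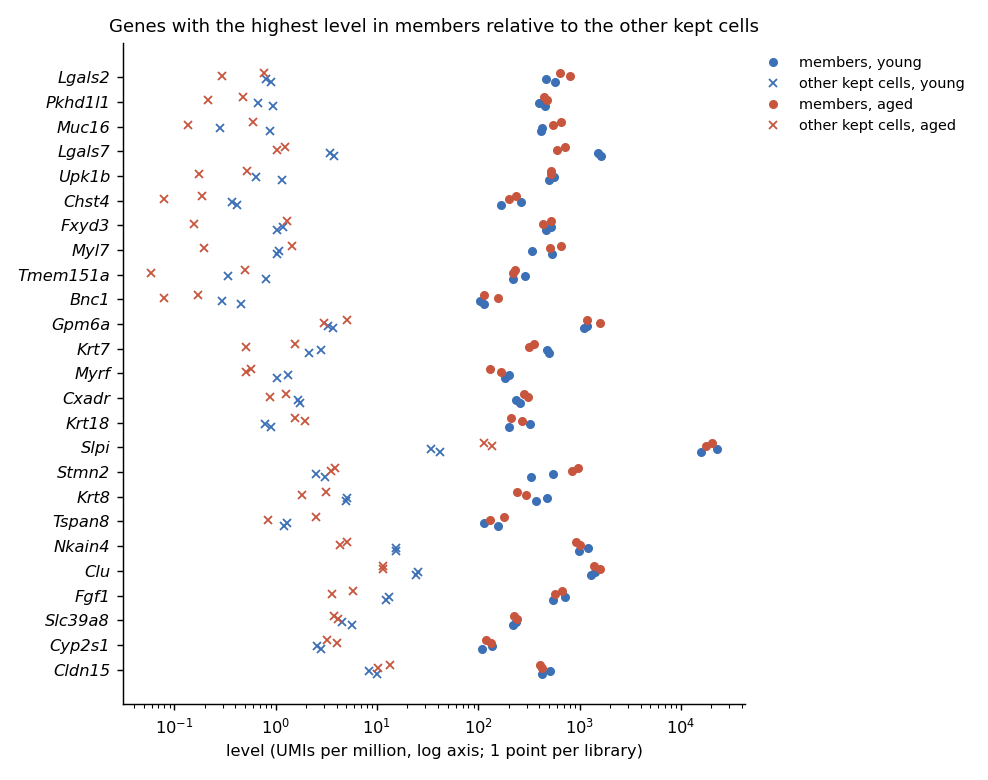
Levels in CPM on a log axis of the 25 genes with the highest ratio of members to other kept cells. Each gene has 1 point per library for members and 1 cross per library for the other kept cells, in blue for young and red for aged. Members and other cells are at least 30.4-fold apart in every row, and Slpi lies far above the rest, at 15945 to 22617 CPM.

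Defining markers of urothelium, collecting duct and podocytes were at or near 0. The 15 genes listed for proximal tubule summed to 2027 to 2581 CPM in young and 266 to 386 CPM in aged members. The largest part of the young sums was Gpx3, at 1609 and 1201 CPM in young and 66.4 and 243 CPM in aged members. Fibroblasts held 2015 to 2607 CPM of Gpx3, so it was not particular to tubule here. In aged replicate 1 the largest part was Lrp2, at 155 CPM. The 10 urothelial genes summed to 2.01 to 2.91 CPM in the young and 0 in the aged members, with Upk2, Upk3a and Krt5 at 0 in every library. The podocyte gene Nphs1 was at 0 in all 4 libraries, while Podxl, which mesothelium and podocytes share, stood at 60.2 to 97.4 CPM, and the list of podocyte and parietal epithelium summed to 255 to 391 CPM. Collecting duct genes summed to 5.47 CPM at most. Genes named for other tissues were nonetheless present. Lrp2, the endocytic receptor megalin, stood at 159, 120, 155 and 71.1 CPM, and Kdr, a receptor of vascular endothelial growth factor, at 163, 158, 203 and 131 CPM, while the endothelial cadherin Cdh5 was under 3 CPM. The members were rich in stromal transcripts too. Dcn, the proteoglycan decorin, stood at 13158, 13359, 14165 and 14789 CPM, close to the 14885 to 19220 CPM of fibroblasts, and Fbln1 at 948 to 1185 CPM, above the 439 to 463 CPM of fibroblasts. Mural genes summed to 59.1 to 130 CPM, adipocyte genes to 49.2 to 151 CPM and red blood cell genes to 8.73 CPM at most. The endothelial list summed to 331 to 476 CPM, with Pecam1 at 0 by the rule. T and NK cell genes summed to 28.2 and 35.7 CPM in young and 36.9 and 336 CPM in aged members, and B and plasma cell genes to 12.4 and 14.1 CPM against 151 and 347 CPM. The fibroblast list summed to 24894 to 25475 CPM in young and 18300 to 21056 CPM in aged members. Tcf21, a stromal factor, stood at 0 to 5.47 CPM, against 64.6 to 80.8 CPM in fibroblasts.

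Age changed 225 of the 8522 genes tested in the members, with 104 higher and 121 lower in aged libraries. That is 2.64% of genes tested, 1.22% higher and 1.42% lower. The test was edgeR's quasi-likelihood test on UMIs summed over the members of each library, with Benjamini-Hochberg adjustment and a threshold of 0.05, and "rose" and "fell" below mean past that threshold. The median log2 change of all genes was -0.0036. Without the mixed barcodes 102 of 7667 genes changed (1.33%), and 91 genes were called both ways, 51 of the rises and 40 of the falls. DESeq2's Wald test called 77 genes, of which 70 were among the 225. Leaving out aged replicate 1 gave 351 calls and leaving out aged replicate 2 gave 345, over other sets of tested genes. A sum over members does not show how a change was spread over cells, so shares of cells with a UMI are added for some genes, after each cell was thinned to 2000 UMIs.

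The most prominent rise was in antigen presentation by MHC class I, the molecules that display fragments of cytosolic proteins to CD8 T cells. They consist of a polymorphic heavy chain and the invariant light chain B2m. Of the 18 listed genes tested, 10 rose and 0 fell, against 1.22% of all genes that rose, and the list's median log2 change was 0.96 beside -0.0036 for all genes. With the mixed barcodes left out, 9 of the 18 rose, against 0.77% of all genes, with a median of 0.89. Kept barcodes without the leukocyte gene Ptprc were 5938 of 8988 and 6569 of 9637 in the young libraries. In the aged libraries they were 2525 of 6763 and 5455 of 11973, so barcodes with Ptprc formed a larger share there. The part of free RNA from other cells in the class I rises was not tested.

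The non-classical heavy chain gene H2-Q7 (GENCODE M21, GRCm38 chr17:35439155-35443773, plus strand, protein coding) had the largest rise of the list. Its level was 84.4 and 55.1 CPM in the young and 443 and 525 CPM in the aged libraries, a log2 change of 2.84 (SE 0.19, adjusted p = 5.16e-07, edgeR). Both aged libraries lay over 5 times above the higher young one. The neighbouring H2-Q6 (44.4 and 30.2 CPM to 177 and 230 CPM, log2 2.50) and H2-Q4 (40.0 and 46.3 CPM to 199 and 183 CPM, log2 2.17) rose as well. H2-Q6 and H2-Q7 are close copies of each other, so the division of reads between them is uncertain, and only their common direction should be read.

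The classical heavy chains were the most abundant. H2-K1 (chr17:33996017-34000347, minus strand) went from 2060 and 1910 CPM to 4312 and 4525 CPM, a log2 change of 1.19 (SE 0.12, adjusted p = 3.12e-05, edgeR). H2-D1 (chr17:35262730-35267499, plus strand) went from 1770 and 1738 CPM to 3714 and 3896 CPM. In both genes the aged libraries were more than double the young ones, with little spread within an age. The light chain B2m rose from 1731 and 1626 CPM to 4042 and 3338 CPM, a log2 change of 1.17. H2-T23, whose product displays leader peptides to natural killer cells, rose from 211 and 195 CPM to 635 and 481 CPM. H2-T22, H2-M3 and the immunoproteasome subunit Psmb8 made up the remainder of the 10. The peptide transporter Tap1 (45.9, 32.2, 48.0 and 87.5 CPM) did not pass, at an adjusted p of 0.182 with edgeR. H2-M3 lost its call without the mixed barcodes and without aged replicate 2.

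**Figure D3:**
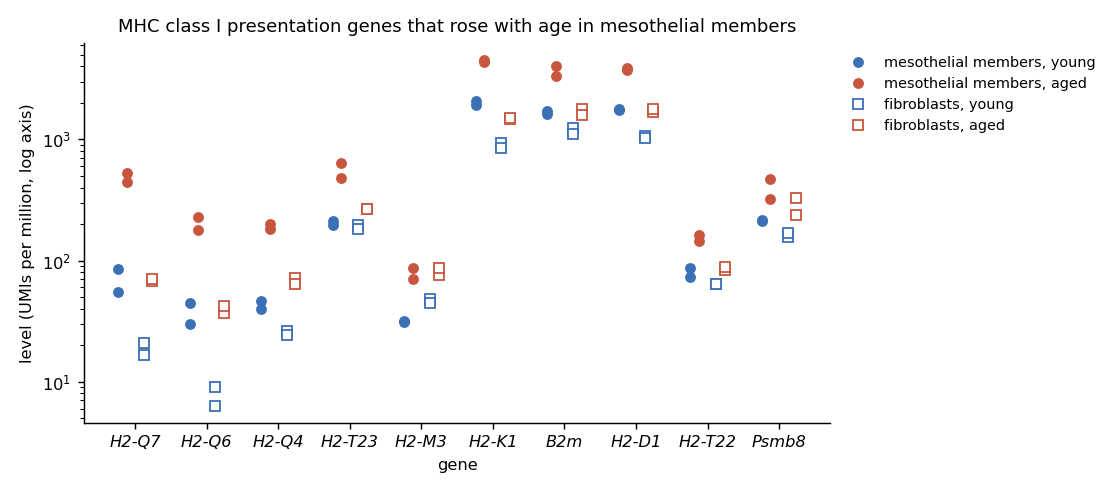
Levels in CPM on a log axis of the 10 MHC class I presentation genes that rose with age in the members, ordered by log2 change. Filled circles are libraries of mesothelial members and open squares are fibroblasts of the same libraries, blue for young and red for aged. Aged circles lie above young circles for every gene, with the widest gap at H2-Q7 (84.4 and 55.1 against 443 and 525 CPM).

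Several promoters of the listed genes carry the same short motifs, which are given here as a description. Of the 19 listed genes, 17 had a window in the RefSeq table (GRCm38.p6), from 250 bases before to 50 after the start. The letters searched were chosen with the results known, and matches on either strand counted. TTTCNNTTC, the core of an interferon-stimulated response element, occurred in 7 of the 17 windows (H2-D1, H2-K1, H2-M3, H2-Q4, H2-Q6, H2-Q7 and Psme1) and in 7.52% of all 32851 windows of that length. GGGATTCCC, a kappaB site, occurred in 4 (H2-D1, H2-K1, H2-Q6 and H2-Q7) and in 0.353% of all. The 250 bases before the start are given for 3 genes, 5′ to 3′ on the gene's strand, with the letters of both motifs in capitals, the kappaB letters first, and 0 matches overlapping. The windows are chr17:34000348-34000597 (minus strand) for H2-K1, chr17:35262844-35263093 (plus) for H2-D1 and chr17:35438905-35439154 (plus) for H2-Q7. Starts here are those of RefSeq, and the H2-D1 window lies inside the gene span given above for H2-D1.
H2-K1: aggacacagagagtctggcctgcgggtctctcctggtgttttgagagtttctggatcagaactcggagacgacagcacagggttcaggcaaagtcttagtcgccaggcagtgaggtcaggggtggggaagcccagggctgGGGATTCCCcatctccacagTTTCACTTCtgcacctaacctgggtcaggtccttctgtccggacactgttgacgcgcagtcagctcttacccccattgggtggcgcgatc
H2-D1: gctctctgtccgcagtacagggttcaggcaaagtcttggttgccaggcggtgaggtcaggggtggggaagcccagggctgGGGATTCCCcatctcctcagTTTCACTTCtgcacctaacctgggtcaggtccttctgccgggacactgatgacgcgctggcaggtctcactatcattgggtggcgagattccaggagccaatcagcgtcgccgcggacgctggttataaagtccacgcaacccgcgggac
H2-Q7: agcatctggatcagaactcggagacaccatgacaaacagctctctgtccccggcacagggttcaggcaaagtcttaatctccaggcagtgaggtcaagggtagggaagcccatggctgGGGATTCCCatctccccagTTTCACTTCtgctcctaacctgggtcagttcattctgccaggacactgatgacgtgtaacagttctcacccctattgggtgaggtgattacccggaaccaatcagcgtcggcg
In all 3 the motifs stand a few bases apart in the same order. The 3 windows are alike over much of the sequence around the motifs, so their matches are not separate occurrences. The counts beside the share of all windows are thus no test. B2m, H2-T23, H2-T22 and Psmb8, which also rose, have neither set of letters in their windows, while Psme1, which has the first, is not among the 10 that rose. Binding was not measured in these data.

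MHC class II genes, which present extracellular peptides to CD4 T cells, were lower and more scattered. H2-Ab1 rose from 209 and 146 CPM to 539 and 397 CPM, a log2 change of 1.42, and was the only one of 8 tested to pass. Cd74, the invariant chain, stood at 688, 413, 1680 and 933 CPM and did not pass (adjusted p = 0.480, edgeR). In young replicate 1 a single barcode held 273 of the 945 Cd74 UMIs. Among members thinned to 2000 UMIs, Cd74 was detected in 21.0% and 29.5% of young and 81.8% and 72.2% of aged cells, against 11.7% to 16.7% of fibroblasts. Without the mixed barcodes H2-Ab1, H2-Aa and H2-Eb1 rose, 3 of 7 tested, and H2-Ab1 stood at 78.1, 65.6, 330 and 439 CPM. All 4 values were below the 1433 CPM (young mean) and 2691 CPM (aged mean) of the other kept cells. Macrophage and monocyte transcripts in the members summed to 665 to 1017 CPM in the young and 189 to 1296 CPM in the aged libraries, with Ptprc at 0 by the rule, and their part in the class II levels was not tested.

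Of the interferon response list, which leaves out the MHC genes, 2 of 29 tested rose and 0 fell, where 1.22% of all genes rose. Irf1, a transcription factor of interferon-gamma responses, went from 44.4 and 49.0 CPM to 126 and 82.1 CPM, and its call was lost without aged replicate 1. Zbp1, a sensor of nucleic acids, went from 34.2 and 45.7 CPM to 92.3 and 93.0 CPM. Among the 12 largest rises were Ifi203, an interferon-inducible gene (69.9 and 68.5 CPM to 240 and 167 CPM, log2 1.57), and Casp4, the inflammatory caspase that senses lipopolysaccharide (24.8 and 17.5 CPM to 66.4 and 73.9 CPM, log2 1.78). For Irf1, Zbp1, Ifi203 and Casp4 the aged libraries lay above the young ones. The cytokine Il7, known for supporting lymphocytes, stood at 24.0 and 25.5 CPM in the young and 73.8 and 60.2 CPM in the aged libraries, a log2 change of 1.45. In the other kept cells it averaged 1.08 and 3.05 CPM. Its call was lost without the mixed barcodes.

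Immediate early genes, which respond within minutes to growth factors and to tissue dissociation, included 10 of 25 tested that rose (1.22% of all genes rose) and 0 that fell, with a median log2 change of 0.87 over the list. Fos went from 625 and 697 CPM to 1170 and 1182 CPM and Junb from 259 and 291 CPM to 539 and 613 CPM. Ier2 went from 153 and 194 CPM to 362 and 372 CPM. For each of these the aged libraries lay apart from the young ones. In 7 of the 10 the call held without the mixed barcodes. The time from dissection to capture is not given for any library, so handling and age cannot be told apart for these genes.

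The falls were led by matrix genes. Of 30 fibrillar collagen and stromal matrix genes tested, 16 fell and 0 rose, against 1.42% of all genes, and the median log2 change was -1.19. Col1a1, a chain of type I collagen (chr11:94936224-94953042, plus strand), went from 1339 and 1424 CPM to 192 and 320 CPM, a log2 change of -2.37 (SE 0.18, adjusted p = 1.40e-06, edgeR). Col1a2, its partner chain, went from 1664 and 1763 CPM to 380 and 689 CPM. Col3a1, the type III chain, went from 4174 and 3358 CPM to 1196 and 1808 CPM. No aged library reached a young one for any of the 3.

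Type VI collagen forms beaded filaments near cells, and its chains fell together. Col6a5 went from 264 and 261 CPM to 48.0 and 62.9 CPM, a log2 change of -2.18 (SE 0.21). Col6a2 went from 410 and 293 CPM to 111 and 107 CPM, and Col6a3 from 106 and 80.6 CPM to 18.5 and 8.21 CPM. Sparc, a collagen-binding glycoprotein, went from 3778 and 3908 CPM to 1244 and 1784 CPM. Adamts2, the protease that trims procollagen, went from 189 and 201 CPM to 59.1 and 71.1 CPM. Olfml2b, an extracellular olfactomedin-like protein, had a log2 change of -1.90, and its call was lost without the mixed barcodes, young replicate 1 or aged replicate 2. In contrast the proteoglycan Dcn, at 13158 to 14789 CPM, showed a log2 change of 0.16 and did not pass (adjusted p = 0.637, edgeR).

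Some fibroblast transcripts were lower in aged members. Dpt fell from 108 and 112 CPM to 18.5 and 32.8 CPM, and Pi16 stood at 223, 380, 7.38 and 104 CPM, while Pdgfra stood at 56.1, 54.4, 25.8 and 52.0 CPM. Dpt had a log2 change of -0.40 and did not pass when the mixed barcodes were left out. Dpt, Pi16 and Pdgfra help define those barcodes, so leaving them out removes UMIs of these genes by construction and is no check on their falls. Members with 10 or more UMIs of fibroblast genes numbered 13, 16, 0 and 3. Without the mixed barcodes 8 of 26 matrix genes fell, against 0.561% of all genes, with a median log2 change of -0.86. Those 8 were Col1a1, Col1a2, Col3a1, Col6a1, Col6a2, Col6a3, Fbln2 and Sparc. With all members thinned to 2000 UMIs, Col1a1 was detected in 80.6% and 85.3% of young and 24.2% and 42.6% of aged members, and in 97.5%, 97.9%, 80.0% and 75.0% of fibroblasts. Without the mixed barcodes Col1a1 stood at 1044, 1267, 165 and 353 CPM and Sparc at 3263, 3399, 1252 and 1886 CPM, close to the values with all members. The other cells of the libraries averaged 2325 CPM of Col1a1 in young and 267 CPM in aged, and the part of free RNA in these falls was not tested.

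**Figure D4:**
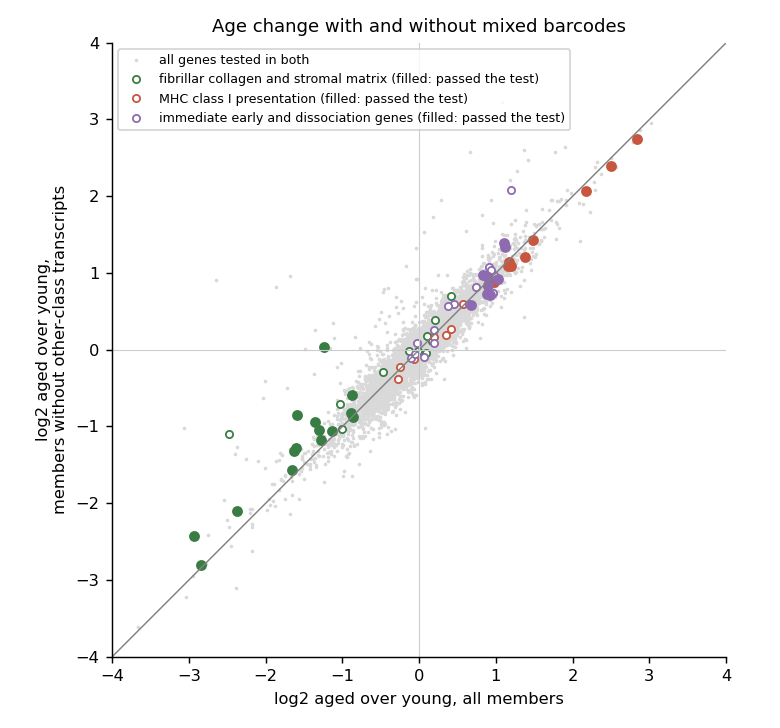
Log2 change of aged over young, with all members on the horizontal axis and without the mixed barcodes on the vertical axis, for genes tested in both fits. Coloured circles are 3 gene lists, filled where the gene passed the test with all members, the line marks equal changes, and genes beyond the axes are not drawn. MHC class I genes follow the line up to 2.84 (H2-Q7), and most matrix genes lie below 0 in both fits, with Col1a1 at -2.37 and -2.10.

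Most genes that define mesothelium did not pass the test of age. Of 26 listed identity genes tested, 2 rose and 1 fell, with a median log2 change of 0.05. The 4 rule genes are left out of these 26. As a description of the chosen cells, each was lower in both aged libraries than in either young one. Msln stood at 1018, 1219, 860 and 777 CPM, Lrrn4 at 649, 670, 502 and 460 CPM, and Krt19 at 1303, 1421, 1104 and 1190 CPM. Upk1b, Slpi, Wt1, Bnc1, Gata6 and Pkhd1l1 had log2 changes between 0.00 and 0.32 and did not pass. Lgals7, a galectin of stratified epithelia and the exception among the falls, stood at 1636 and 1514 CPM in the young and 605 and 725 CPM in the aged libraries. This was a log2 change of -1.20 (SE 0.13, adjusted p = 6.92e-05, edgeR), it held without the mixed barcodes, and the other cells had 3.60 and 1.14 CPM on average. Efemp1, an extracellular fibulin, rose from 1529 and 1459 CPM to 2167 and 2158 CPM (log2 0.57), and Muc16 rose by 0.54 on the log2 scale. Neither call held without the mixed barcodes, where the log2 changes were 0.53 and 0.43, or without young replicate 2, and that of Muc16 was also lost without young replicate 1 or aged replicate 2. Krt8 stood at 370, 481, 295 and 243 CPM. It did not pass with all members (adjusted p = 0.0725, edgeR), passed without the mixed barcodes, and passed also without young replicate 1 or aged replicate 1.

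Ckmt1 and Evpl, nearly private to the members, also fell. Ckmt1, a mitochondrial creatine kinase, went from 89.5 and 122 CPM to 29.5 and 24.6 CPM, and Evpl, the cornified envelope protein envoplakin, from 44.4 and 62.5 CPM to 14.8 and 5.47 CPM. Cela1, an elastase-like serine protease, went from 66.2 and 67.8 CPM to 11.1 and 5.47 CPM. All 3 fell without the mixed barcodes as well. Fibroblasts held under 0.5 CPM of Ckmt1 or Evpl on average. The Evpl call was lost without aged replicate 2. Stmn2, a microtubule regulator known from neurons and among the 25 leading genes above, rose from 331 and 541 CPM to 845 and 971 CPM, a log2 change of 1.10 (SE 0.21, adjusted p = 0.0259, edgeR).

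Among signalling genes, 3 of 24 tested in the TGF-beta and BMP list rose and 0 fell, where 1.22% of all genes rose. Id1 and Id3 are inhibitors of differentiation factors and common targets of BMP signals. Id1 went from 134 and 171 CPM to 365 and 457 CPM, a log2 change of 1.47 (SE 0.17, adjusted p = 8.16e-05, edgeR), and Id3 from 521 and 560 CPM to 860 and 1029 CPM. Both held without the mixed barcodes, with the aged libraries above the young ones. Vwc2, a secreted protein with von Willebrand factor C domains known as a BMP antagonist, went from 34.2 and 28.9 CPM to 192 and 118 CPM, against 7.11 and 5.19 CPM in other cells. Ltbp2, a latent TGF-beta binding protein, stood at 8.74, 1.34, 29.5 and 43.8 CPM, from 12, 2, 8 and 16 UMIs. Its call was lost without young replicate 1, young replicate 2 or aged replicate 2.

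Kng2, a kininogen precursor, rose from 5.82 and 7.39 CPM to 62.8 and 46.5 CPM, from 8, 11, 17 and 17 UMIs, a log2 change of 3.02. Abcb1a, a drug efflux pump, stood at 20.4, 18.8, 84.9 and 38.3 CPM, and its call was lost without aged replicate 1 and, at a log2 change of 1.57 beside 1.61 with all members, without the mixed barcodes. The surface proteoglycan Gpc3 went from 574 and 418 CPM to 960 and 739 CPM, and its call was lost without young replicate 2. The metallothioneins Mt1 and Mt2, zinc-binding stress proteins, rose with log2 changes of 0.72 and 0.93, and Mt2 held without the mixed barcodes while Mt1 did not and was lost without aged replicate 1. In the ribosomal list, 6 of 55 protein genes rose (1.22% of all genes) and 0 fell, and 2 rose without the mixed barcodes (0.77% of all genes). With all members 51 of the 55 had a positive change, and the list median was 0.26. No gene of the Wnt, complement, keratin and intermediate filament, or nuclear-encoded oxidative phosphorylation lists passed the test with all members. Nor did any of the transcription factors of coelomic epithelium. Of 10 keratin and intermediate filament genes tested, 9 had a negative change and 6 were lower without overlap (25.3% of all genes). Their median log2 change was -0.49, and Krt8 fell without the mixed barcodes. Complement C3 stood at 9460, 10198, 9207 and 7386 CPM. C4b, another complement component, stood at 135, 73.9, 964 and 539 CPM, a log2 change of 2.87 that did not pass (adjusted p = 0.174, edgeR). Among members thinned to 2000 UMIs, C4b was detected in 14.5% and 9.30% of young and 66.7% and 44.4% of aged cells. Fibroblasts thinned alike had a similar shift, with C4b in 12.2% and 11.7% of young and 53.1% and 50.8% of aged cells. C4b was named after its values were seen.

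The remaining lists held few changes. Cdh2, the neuronal cadherin of mesothelial junctions, was the 1 rise among 28 junction genes and among 17 genes of mesenchymal transition, and it was lost without aged replicate 1. Anxa2, a receptor for plasminogen activation, was the 1 fall among 12 fibrinolysis genes (1254, 1473, 842 and 960 CPM), and it did not hold when young replicate 2 or aged replicate 1 was left out. Of 19 basement membrane genes Lama2 and Hspg2 fell. Without the mixed barcodes Lama2 had too few UMIs to be tested and Hspg2 did not pass. Rbp4 in the retinoid list (12 tested), Igfbp3 in the growth factor list (24) and Manf in the heat shock list (29) were single falls, and of these Manf held without the mixed barcodes. Cdkn2c rose and Igfbp3 fell among 13 senescence genes, and without the mixed barcodes neither passed (log2 0.99 for Cdkn2c). Over all genes 1.22% rose and 1.42% fell. Fabp5 and Abca1 rose among 22 lipid genes, and Abca1 held without the mixed barcodes but not without young replicate 2 or aged replicate 1. In the mitochondrially encoded list mt-Nd1, mt-Nd3 and mt-Nd4 fell among 12 tested, and 0 of the list passed without the mixed barcodes or, for these 3, without aged replicate 2.

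Transcripts of the cell cycle were found in young members and, for several genes, not at all in aged ones. Of 12 proliferation genes tested 7 fell, where 1.42% of all genes fell, and 0 rose. Cenpf, a kinetochore protein, stood at 28.4 and 47.0 CPM in the young libraries (39 and 70 UMIs), and Mki67 at 20.4 and 21.5 CPM. Both were at 0 in both aged libraries, as were Ube2c, Ccnb2, Birc5 and Cenpa. The aged members held 636423 UMIs in all, and 3 UMIs among them correspond to 4.71 CPM. Against that limit Cenpf was 8.08-fold and Mki67 4.45-fold lower in aged members. The limit covers counting of UMIs only. Without the mixed barcodes, all Cenpf UMIs of the young libraries lay in 9 and 16 cells. With so few cells carrying it, the limit is no lower bound on the difference between ages. The calls of Cenpf and Cenpa were lost without young replicate 2, and that of Ube2c without young replicate 1 and without the mixed barcodes. With the mixed barcodes left out 5 of 12 fell (0.561% of all genes), among them Mki67 and Cenpf. Shares of cycling cells rested on few barcodes. After each cell was thinned to 2000 UMIs, 2 of 124 and 3 of 129 young members had at least 4 of 28 proliferation genes, 1.61% and 2.33%. No aged member did, 0 of 33 and 0 of 54. A count of 0 allows shares of up to 9.09% and 5.56% (3 counts of the total) of members with 4 such genes at this depth, and sets no limit on the share of cycling cells. Without thinning there were 14, 23, 2 and 5 such members of 132, 136, 33 and 56, at different depths, so aged members with these transcripts were present.

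The falls with the largest log2 values were transcripts of the proximal tubule, the kidney epithelium under the capsule. Slc34a1, its phosphate transporter, stood at 194 and 153 CPM in young members and at 0 in both aged libraries. It was 36.7-fold lower when 3 UMIs are set against the aged libraries together. That limit covers counting of UMIs only, and is no lower bound where few cells carry the transcript. Spp2, Tmem27, Gatm, Fbp1 and Ass1 fell too. The proximal tubule marker list, given above and led in young members by Gpx3, which fibroblasts share, was lower in aged members as a sum. Without the mixed barcodes Slc34a1 stood at 13.7, 3.41, 0 and 0 CPM, lowered by construction, since Slc34a1 helps define those barcodes. Slc34a1, Spp2, Tmem27, Gatm and Fbp1 then had too few UMIs to be tested. Ass1 turned to a log2 change of 0.91 that did not pass. The young and aged values of the other kept cells were 286 and 68.9 CPM for Slc34a1. Immunoglobulin transcripts moved the other way. Igkc stood at 2.91, 4.03, 118 and 287 CPM in members while the other cells averaged 253 CPM in young and 28470 CPM in aged libraries.

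The same age comparison was set against fibroblasts of the same libraries, in 1 model with a term for each library. The age change in members differed from that in fibroblasts for 325 of 14283 genes (2.28%), higher in members for 161 (1.13%) and lower for 164 (1.15%). Without young replicate 1 there were 118 such genes and without young replicate 2 there were 143. In the fibroblasts themselves 3904 of 15730 genes changed (24.8%), from many more cells, so counts of calls are not comparable between the classes.

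Many MHC class I genes rose in both classes. In fibroblasts 16 of 19 listed genes rose (12.1% of all genes rose there), with a median log2 change of 0.55. The difference between the classes passed the test with a larger rise in members for 5 of 19 genes and a smaller one for 1, Psme2. H2-T23 had log2 changes of 1.48 in members and 0.50 in fibroblasts, and H2-Q7 of 2.84 and 1.91. Both, and B2m, held without the mixed barcodes, while H2-K1 and H2-D1 then did not pass. Of 29 immediate early genes, 7 also rose by more in members, and 0 by less. Id1 had a log2 change of 1.47 in members and of 0.32 in fibroblasts, where it did not pass, and the difference of 1.13 passed.

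Most matrix genes of the list fell in both classes. In fibroblasts 22 of 31 fell and 3 rose (12.7% and 12.1% of all genes there), with a median log2 change of -0.89. The age changes differed past the test for 7 of 31, higher in members for 3 and lower for 4. Fmod, the collagen-binding proteoglycan fibromodulin, stood at 304, 257, 303 and 287 CPM in members and at 321, 228, 72.9 and 79.5 CPM in fibroblasts, so that it fell in fibroblasts and did not pass in members (log2 0.11), and the changes differed by 1.90 on the log2 scale (SE 0.18, adjusted p = 1.09e-22, edgeR). Fbln2, a fibulin of elastic fibres, fell in members (407, 492, 251 and 235 CPM) and rose in fibroblasts (373, 359, 558 and 460 CPM). Col6a3 and Col6a5 fell by more in members, Sparc and Col3a1 by less, and Col1a1 showed a difference of -0.39 that did not pass. The difference for Col3a1 was lost without the mixed barcodes.

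Aldh1a2, Kdr and Csrp2 changed in fibroblasts and did not pass the test in members, while Lgals1 passed in both classes. Aldh1a2, which makes retinoic acid, stood at 125, 112, 148 and 82.1 CPM in members and went from 1.02 and 0.658 CPM to 8.32 and 10.7 CPM in fibroblasts, a difference of age changes of -3.59 (SE 0.33). Aged fibroblasts thus stayed below the members. Kdr stood at 131 to 203 CPM in members and fell in fibroblasts from 39.8 and 34.2 CPM to 6.71 and 10.9 CPM. Csrp2, a LIM-domain protein, stood at 1441, 1621, 1403 and 2227 CPM in members and fell in fibroblasts from 342 and 362 CPM to 169 and 176 CPM. Lgals1, galectin 1, fell in members from 4212 and 4726 CPM to 2710 and 2982 CPM and rose in fibroblasts from 1155 and 1166 CPM to 1638 and 1611 CPM.

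**Figure D5:**
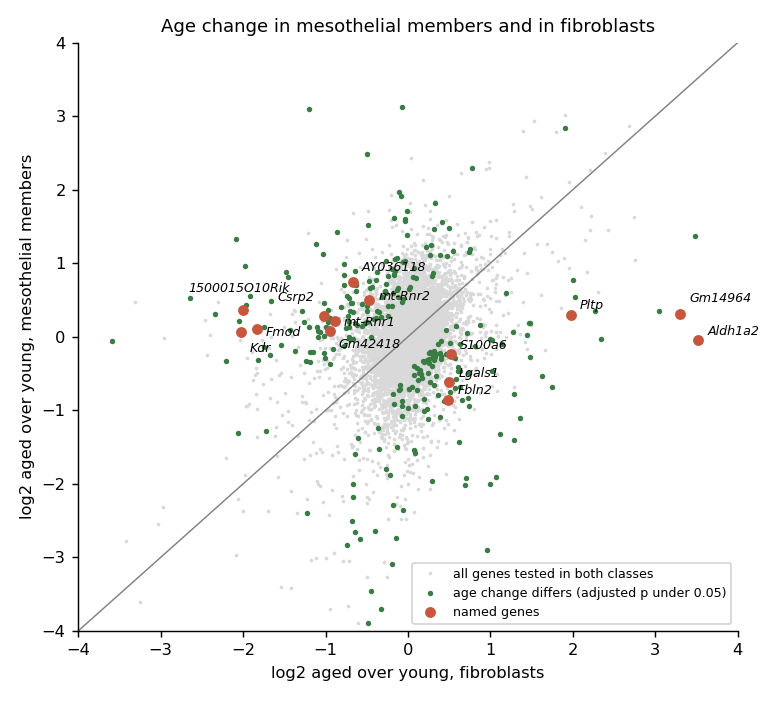
Log2 change of aged over young in fibroblasts (horizontal) and in mesothelial members (vertical), for genes tested in both. Green points are genes whose age changes differ past the test, red points the named ones, the line marks equal changes, and genes beyond the axes are not drawn. Aldh1a2 lies far to the right near 0 on the vertical axis (3.52 and -0.05), and Fmod and Kdr to the left of it near 0 (-1.83 and -2.03 in fibroblasts).

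The spread among members was wide for Slpi, which had the highest Fano factor by the mean of the young libraries. After thinning to 2000 UMIs, this factor (variance over mean of UMIs per cell) was 32.5, 31.1, 45.5 and 24.1 in the 4 libraries, against a median of 1.05 over 2697 genes. Malat1, a nuclear RNA, was higher in young replicate 1 (38.5) and aged replicate 2 (27.9), and Gm42418 in young replicate 2 (32.8). Enpp2, which makes lysophosphatidic acid, divided the young members. Cells with at least 3 UMIs of it, after mixed barcodes were left out, numbered 29 against 79 with fewer in young replicate 1 and 28 against 85 in young replicate 2. In the aged libraries there were 4 against 28 and 7 against 44, and the part of this difference in the matrix changes was not tested. This cut was made before thinning, so it also follows depth, and aged replicate 2 was the shallowest. Among all members thinned to 2000 UMIs, Enpp2 was detected in 30.6% and 22.5% of young and 9.09% and 18.5% of aged cells. In the young cells with at least 3 UMIs of Enpp2 the Slpi level was 6285 and 14426 CPM, against 22887 and 29915 CPM in the remaining young cells. In the same young cells Col1a1 stood at 2053 and 2020 CPM against 705 and 974 CPM. The rule gene Msln stood at 585 and 920 CPM against 1325 and 1610 CPM, while Upk3b (2374 and 2657 against 2097 and 2751 CPM) was similar. Cmah, Clic3, Aqp1 and Krt14 were lower and Tshz2, Tgfbi, Igfbp3 and Col6a3 higher in the Enpp2 cells of both young libraries. In aged replicate 2 Col1a1 stood at 669 CPM in the 7 cells and 302 CPM in the others. The split was chosen after values were seen and is given as a description.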

How the data were processed

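Single-cell RNA was measured in 4 libraries, 2 young and 2 aged. The authors deposited UMI counts per gene and barcode, raw and without normalization. Per the submitters' processing notes they used Cell Ranger 6.0.2 on GRCm38, while the file headers state 6.0.1. The annotation is not given in the sources used here. The files list 52636 genes. Library totals were 51180311 to 70925446 UMIs over 7067 to 12289 barcodes.

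Counts of members and of fibroblasts were summed per library, and CPM is UMIs over such a sum, scaled to 1000000. Genes were tested with edgeR 4.0.16 (R 4.3.3): filterByExpr, TMM, robust quasi-likelihood F-test, Benjamini-Hochberg adjustment over all genes tested. DESeq2 1.42.0 was an alternative. The difference from fibroblasts was the class by age term with library as a block. The procedure was tested on simulated data. Doublets were left in, and removing the barcodes with the highest Scrublet scores (scanpy 1.11.5), in a number preset by library size, was an alternative. Thinning drew 2000 UMIs per cell and left out shallower cells.

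Named genes were the 12 largest rises and 12 largest falls past the threshold without overlap between ages, with at least 50 CPM in the higher age and at least 0.5 times the level of the other cells. To these came up to 4 genes of smallest p per list, the identity genes, the 8 differences of smallest p in each direction, and the 25 leading genes with at least 100 CPM in every library. The other genes given by name were chosen after their values were seen. Members and lists were chosen with earlier results of these data known.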

Additional observations from a re-analysis of the deposited data

Results flagged for a closer look

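For 16 genes the change with age differed between mesothelial members and fibroblasts of the same libraries, by the test of the difference itself (edgeR's class by age term, 8 genes of smallest p in each direction). Values are differences of log2 changes, members minus fibroblasts. The 8 with the higher change in members were 1500015O10Rik (2.34), Kdr (2.07), Fmod (1.90), AY036118 (1.38), Csrp2 (1.25), mt-Rnr1 (1.08), Gm42418 (0.97) and mt-Rnr2 (0.94). Gm42418 and AY036118 lie over ribosomal RNA sequence, and with the mitochondrial ribosomal genes mt-Rnr1 and mt-Rnr2 they make up 4 of the 8. The 8 with the lower change in members were Slc34a1 (-12.01), Aldh1a2 (-3.59), Gm14964 (-3.01), Fxyd2 (-2.72), Pltp (-1.70), Fbln2 (-1.35), Lgals1 (-1.14) and S100a6 (-0.78). Slc34a1 helps define the barcodes that carry tubule transcripts, so leaving those out removes its UMIs by construction. Slc34a1 and Fxyd2 are tubule transcripts, and Slc34a1 is at 0 in aged members, so its fitted value depends on the prior count. Both lost the call without aged replicate 2 and without barcodes that carry transcripts of another class, where Fxyd2 turned to 0.88.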

How the results depend on the processing

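The lower aged share kept its direction throughout (log2 -1.59). It was -1.75 with doublets removed, -1.53 after thinning, -1.52 for barcodes with at least 2000 UMIs not thinned, -0.88 among barcodes without Ptprc, -0.32 per 100 fibroblasts and -1.40 without barcodes carrying other-class transcripts. Leaving out 1 library gave -1.56 to -1.62. The 225 genes changed with age became 77 with DESeq2's Wald test, 429 with no filter on low counts, 76 with sums thinned to the smallest, 102 without barcodes carrying other-class transcripts, and 6 of 447 tested without any barcode holding a UMI of another class's defining markers. Leaving out 1 library gave 186 to 351, the highest without aged replicate 1. The 325 differences from fibroblasts became 73 with DESeq2's Wald test, 164 with thinned sums and, with 1 library left out, 118 to 276, the lowest without young replicate 1. Deviations of same-numbered libraries from the mean of their age had a correlation of 0.0328 over genes. As 1 value from 4 libraries it cannot exclude that same-numbered libraries shared a batch, and the labels do not say. With the replicate number as a block the counts were 406 and, in place of the library block, 174. Of results for single genes under all alternatives, 1275 kept the side of the threshold, 162 lost the call and 12 gained it. The 1275 include genes that passed in neither fit, whatever their direction, and the rest of them kept their direction. A further 4 reversed direction with a call in either fit. These were Ass1 (0.91) and Fxyd2 (0.88, difference) without barcodes carrying other-class transcripts, and mt-Nd4 (0.014) and Gstm1 (-1.10) without any such UMI. The cause was not tested. The alternatives without other-class transcripts, with at least 2000 UMIs not thinned and without robust dispersion were chosen after seeing the data. The 33 and 56 aged members limit what could be detected in low genes.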
